A study of Mus musculus with 9 samples.

Results

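The glandular kallikreins Klk1 and Klk1b1 to Klk1b26 were followed through 3 stages of submandibular salivary gland disease in Smgb-Tag mice. The family was defined by 10 gene symbols, and a probe counted as a member when the array's annotation gave it one of these symbols alone. Of the 10 symbols, 8 had a probe, namely Klk1, Klk1b1, Klk1b5, Klk1b8, Klk1b9, Klk1b22, Klk1b24 and Klk1b26, among 19057 genes with a probe in all. They were covered by 15 of 34885 probes with a single gene symbol. Klk1b3 and Klk1b4 were not analysed here. The arrays held total RNA of whole submandibular glands, 3 labelled normal, 3 with dysplasia and 3 with adenocarcinoma. All 9 glands carried the Smgb-Tag transgene, which expresses the SV40 T antigen, a viral oncoprotein, so the normal glands are transgenic glands without a tumour stage. The name of the line refers to Smgb, a salivary gland secretory gene. No array came from a mouse without the transgene, and the labels used here give neither age nor sex. Eif2s3y, a gene of the Y chromosome, read 10.15 to 11.17 on the log2 scale on the 9 arrays by its brighter probe. Kdm5d, also of the Y chromosome, read 7.88 to 8.59 by its brighter probe. All 9 arrays thus carried RNA of Y chromosome genes, as male tissue does.

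Glandular kallikreins are secreted serine proteases encoded by a cluster of closely related genes that has expanded in the mouse. Klk1, the tissue kallikrein, releases kinins from kininogen and is made in the ducts of salivary glands and in other organs such as the kidney. The Klk1b proteins are stored with epidermal growth factor and renin in the granules of the granular convoluted tubule, a duct segment of the rodent submandibular gland that develops under androgens and is larger in males. Some members bind or process these cargoes. Klk1b9 and Klk1b22 are known as epidermal growth factor binding proteins, and Klk1b26 as a prorenin-converting enzyme.

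In the RefSeq annotation the 14 protein-coding genes of the family lie side by side on chromosome 7, with Klk1b8 at one end and Klk1b5 next to Klk1 at the other. The DNA just before the genes is shown because it lets the likeness of the copies be seen. It lies outside the transcripts and so carries nothing on what a probe reads. The sequences are 60 bases each, on the plus strand of GRCm38.p6 from RefSeq, and capitals mark TTTAAA, which a search of both strands found within 44 bases before the annotated start of each of these 7 genes.
Klk1b8, chr7:43950574-43950633: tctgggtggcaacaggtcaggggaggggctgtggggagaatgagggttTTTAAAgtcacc
Klk1b1, chr7:43966670-43966729: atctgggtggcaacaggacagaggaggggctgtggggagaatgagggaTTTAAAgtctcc
Klk1b9, chr7:43975980-43976039: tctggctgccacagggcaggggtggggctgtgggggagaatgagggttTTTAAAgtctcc
Klk1b26, chr7:44012604-44012663: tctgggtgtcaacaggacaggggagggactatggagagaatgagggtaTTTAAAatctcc
Klk1b22, chr7:44112585-44112644: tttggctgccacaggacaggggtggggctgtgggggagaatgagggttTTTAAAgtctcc
Klk1b24, chr7:44188157-44188216: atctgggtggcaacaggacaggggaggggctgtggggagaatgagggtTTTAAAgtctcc
Klk1b5, chr7:44216384-44216443: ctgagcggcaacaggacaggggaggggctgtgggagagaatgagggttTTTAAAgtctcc
Over the 21 pairs of these windows, identity in a global alignment was 82% to 96.7%, with a median of 87.1%. The highest value was shared by Klk1b9 with Klk1b22 and by Klk1b1 with Klk1b24. TTTAAA was found in the promoters of 9 of the 10 member symbols, Klk1 being the exception, and in 13.2% of all 32851 RefSeq promoter windows of the same length (250 bases before to 50 after the start). TATAAA, the usual TATA box, was in 0 of 10 and in 13.6% of all. AGAACA, one arm of the palindromic androgen response element, searched on both strands, was in those of Klk1b24 and Klk1b3, 2 of 10, and in 19% of all. These matches describe the letters of the windows and not binding.

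Normal 3 was unlike the remaining normal glands, whatever its label. Over 13015 genes tested it correlated at 0.872 and 0.881 with normal 1 and normal 2, which correlated with each other at 0.992, and at 0.953, 0.97 and 0.932 with dysplasia 1, 2 and 3. The median of 17 cell division genes was 7.54, 7.96 and 11.91 on normal 1, 2 and 3. It lay between 11.03 and 12.08 on the dysplasia arrays and between 11.12 and 12.00 on the adenocarcinoma arrays. Comparisons with normal glands are therefore given with and without this array, which was left out after its values were known. The labels do not state that replicates are separate animals, and p-values here reflect only how far these arrays spread, which may be technical.

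All values are log2 of the authors' normalized intensities. An intensity of 6.31 on this scale was taken as background and 15.63 was the highest value on any array. On normal 1 and normal 2, all 15 kallikrein probes lay within 1 unit of that ceiling, so differences from these arrays may be understated. In whole glands, fewer tubule cells and less kallikrein RNA per cell cannot be told apart. Where a gene had several probes, the brightest was tested, and the others are described beside it.

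Klk1 read 15.50, 15.51 and 13.73 on normal 1, 2 and 3, then 11.19, 14.57 and 12.16 on dysplasia 1, 2 and 3, and 14.999, 12.45 and 14.09 on adenocarcinoma 1, 2 and 3. Every Klk1 value was far above background. Dysplasia 2 and all adenocarcinoma arrays except the second lay above normal 3, so Klk1 did not separate the stages. Its mean was 14.91 ± 1.03 in normal glands, 12.64 ± 1.74 in dysplasia and 13.85 ± 1.29 in adenocarcinoma (SD, n = 3 each).

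Klk1b9 read 15.44, 15.23 and 14.88 on the normal arrays, 8.53, 12.76 and 6.72 in dysplasia and 15.04, 10.24 and 7.24 in adenocarcinoma. Klk1b22, also a growth factor binding protein, read 15.17, 15.16 and 14.49 on the normal arrays, 8.15, 12.42 and 6.62 in dysplasia and 14.68, 10.17 and 7.04 in adenocarcinoma. For both genes dysplasia 3 and adenocarcinoma 3 were close to background, adenocarcinoma 1 was at the level of the normal arrays and dysplasia 2 lay between. No dysplasia array reached the lowest normal array, whereas adenocarcinoma overlapped both other stages.

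By the probes tested, Klk1b1 had the widest gap between the means of dysplasia and normal glands. The second Klk1b24 probe had a gap of the same size, with a log2 fold change of -6.74 for each. Klk1b1 read 15.26, 15.39 and 11.79 on the normal arrays, 7.05, 8.65 and 6.52 in dysplasia and 14.11, 7.78 and 6.62 in adenocarcinoma. The value on normal 3 was more than 3 units below the other normal arrays, and adenocarcinoma 1 was again the high array of its group. Klk1b8 read 15.15, 15.25 and 13.52 on the normal arrays, 7.32, 10.95 and 6.50 in dysplasia and 14.36, 8.54 and 7.16 in adenocarcinoma. Klk1b24 read 14.95, 15.03 and 12.57 on the normal arrays, 7.09, 10.28 and 6.50 in dysplasia and 13.05, 8.34 and 6.87 in adenocarcinoma. Dysplasia and normal arrays did not overlap for any of these 3 genes, and the adenocarcinoma arrays spanned nearly the whole range.

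Klk1b26 and Klk1b5 remained well above background in the diseased glands when read by their brightest probes. Klk1b26 read 15.24, 15.38 and 15.30 on the normal arrays, 10.86, 14.79 and 10.70 in dysplasia and 15.53, 12.71 and 13.05 in adenocarcinoma. Klk1b5 read 15.23, 15.19 and 14.53 on the normal arrays, 9.79, 14.22 and 10.30 in dysplasia and 15.06, 11.19 and 12.86 in adenocarcinoma. Neither gene came near background on any array by these probes. Their other probes gave a different picture, described further on.

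**Figure D1:**
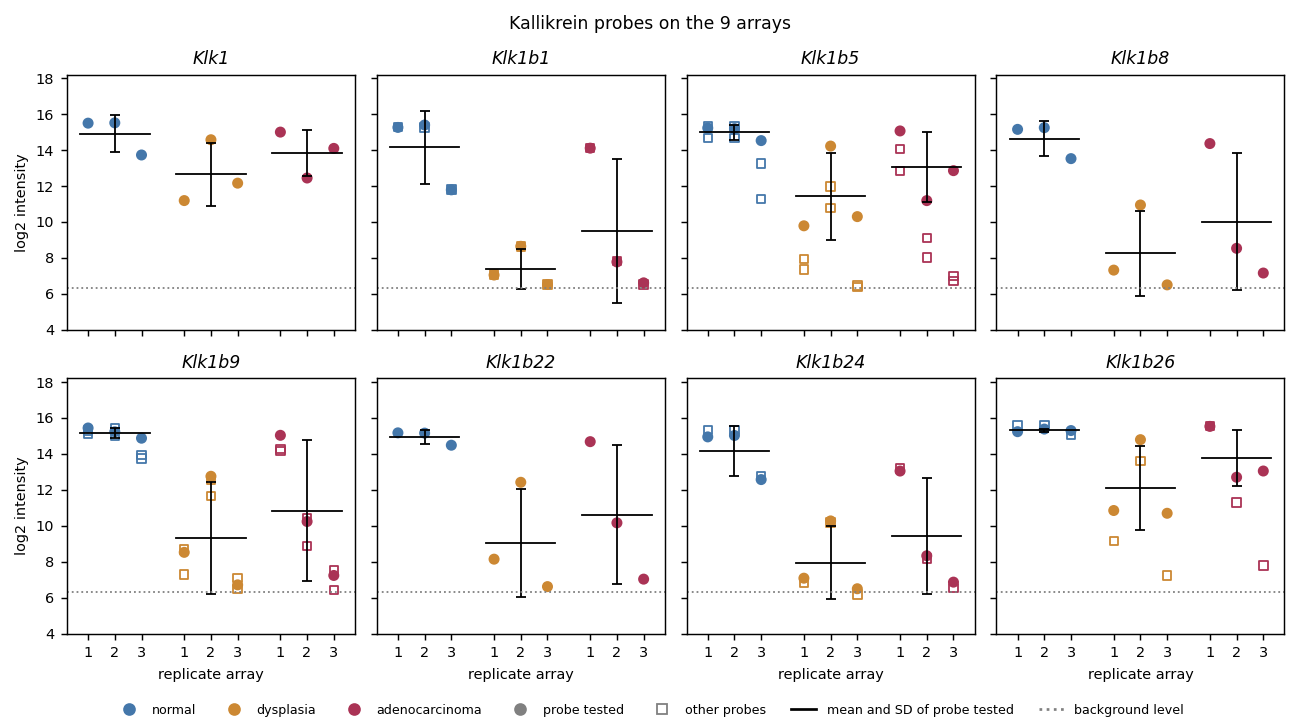
Log2 intensity (y axis) of the 8 kallikrein genes on the 9 arrays (x axis, replicates 1 to 3 of normal, dysplasia and adenocarcinoma). Filled circles are the probe tested, open squares are other probes of the gene, bars are the mean and SD of the probe tested (n = 3) and the dotted line is the background level of 6.31. Normal 1 and 2 are high throughout, while normal 3 is lower for several genes, down to 11.79 for the tested Klk1b1 probe. Adenocarcinoma 1 is close to the normal arrays, and dysplasia 3 is among the lowest arrays of every gene.

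The comparison of dysplasia with normal glands asked how the kallikreins differ once the gland is dysplastic. All 8 genes had lower means in dysplasia, and 7 of them, all but Klk1, were lower on each dysplasia array than on any normal array. Across all genes tested, 10.4% showed such a fall without overlap. Klk1b1 had a mean of 7.41 ± 1.11 in dysplasia and 14.15 ± 2.04 in normal glands (SD, n = 3 each), a log2 fold change of -6.74 ± 1.90 (SE, 95% interval -11.13 to -2.35). Klk1b8, Klk1b24, Klk1b22 and Klk1b9 had log2 fold changes of -6.38, -6.23, -5.87 and -5.85, against -3.55 for Klk1b5, -3.19 for Klk1b26 and -2.27 for Klk1. Whether these genes differ from one another in their fold changes was not tested. The median over the 8 genes was -5.86, beside 0.04 over all genes tested. In limma on all 9 arrays, 0 of the 8 genes passed an adjusted p of 0.05 (adjusted p = 0.16 to 0.229), although 7 had an unadjusted p under 0.05. On all 9 arrays 0% of the genes tested passed in either direction, and 2855 had an unadjusted p under 0.05. The 95% intervals of 7 genes lay below 0, and that of Klk1 reached from -4.55 to 0.01.

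Without normal 3, Klk1b1 and Klk1b24 passed, and 11.1% of all genes tested passed as lower. Klk1b1 then fell 242-fold in dysplasia (log2 fold change -7.92 ± 2.03, SE, limma adjusted p = 0.0315). Over 19 alternative settings its adjusted p was 0.000953 to 0.518. Klk1b24 fell 131-fold (-7.03 ± 1.85, SE, limma adjusted p = 0.0344, and 0.00266 to 0.518 over the 19 settings). The other 6 kallikreins had log2 fold changes between -6.94 for Klk1b8 and -2.86 for Klk1, with adjusted p = 0.0594 to 0.134. These values rest on normal 1 and normal 2, which were nearly alike.

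The dysplasia arrays had a larger SD than the normal arrays for 7 of the 8 genes, the exception being Klk1b1. Dysplasia 2 was the highest of the 3 for every kallikrein, with a median over the 8 genes of 12.59, next to 8.34 on dysplasia 1 and 6.67 on dysplasia 3. On dysplasia 2, the log2 change from the gene's own normal mean was -0.34 for Klk1 and -0.51 for Klk1b26, while it was -5.499 for Klk1b1. Without dysplasia 2 the log2 fold changes were -7.56 for Klk1b9, -7.55 for Klk1b22 and -3.24 for Klk1.

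The comparison of adenocarcinoma with normal glands asked the same of the tumours. All 8 genes had lower means in adenocarcinoma, with log2 fold changes from -4.76 for Klk1b24 to -1.07 for Klk1 and a median of -4.33, beside 0.01 over all genes tested. For none of the 8 were the groups free of overlap, against 9.65% of all genes that were lower without overlap, since adenocarcinoma 1 lay within or next to the normal range. In limma 0 of 8 passed on all 9 arrays (adjusted p = 0.274 to 0.612, with 3 genes at an unadjusted p under 0.05), as did 0% of all genes tested. Of the 13015 genes tested, 2050 had an unadjusted p under 0.05 there. Without normal 3, 0 of 8 passed either (adjusted p = 0.0876 to 0.482), where 7.77% of all genes passed as lower. Klk1b24 averaged 9.42 ± 3.23 in adenocarcinoma and 14.18 ± 1.39 in normal glands (SD, n = 3 each), with a 95% interval of the difference from -8.60 to -0.93.

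The sizes depended on which tumours were included. Without adenocarcinoma 1, the log2 fold changes were -6.95 for Klk1b1, -6.79 for Klk1b8, -6.44 for Klk1b9 and -6.34 for Klk1b22, where all 9 arrays gave -4.65, -4.62, -4.34 and -4.31. None of them passed then either (limma adjusted p = 0.367 for each). Without adenocarcinoma 3, they were -3.20 for Klk1b1, -3.19 for Klk1b8, -2.54 for Klk1b9 and -2.51 for Klk1b22. Without adenocarcinoma 2, Klk1 was at -0.37, Klk1b5 at -1.02 and Klk1b26 at -1.02, where all 9 arrays gave -1.07, -1.95 and -1.54. On adenocarcinoma 1 itself, the log2 changes of the 8 genes from their normal means were between -1.13 and 0.23. Over all genes tested this array correlated at 0.9085 and 0.9143 with normal 1 and normal 2, the highest values among the diseased arrays.

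Adenocarcinoma against dysplasia asked whether the stages of disease differ. All 8 genes had higher means in adenocarcinoma, by 1.20 for Klk1 to 2.09 for Klk1b1 on the log2 scale. In limma 0 of 8 passed (adjusted p = 0.889 to 0.915, with none at an unadjusted p under 0.05). Of the 13015 genes tested, 0 passed and 555 had an unadjusted p under 0.05. The groups overlapped for all 8, and 4.03% of all genes were higher in adenocarcinoma without overlap. The widest 95% interval, that of Klk1b9, ran from -3.22 to 6.23, so it covered differences of either sign. Without adenocarcinoma 1 the sign turned for Klk1b1, Klk1b8, Klk1b9, Klk1b22 and Klk1b24. The order of the stage means was thus normal, adenocarcinoma and dysplasia from high to low for every member, with adenocarcinoma and dysplasia not separated beyond their spread. Both comparisons with normal glands share the same normal arrays.

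**Figure D2:**
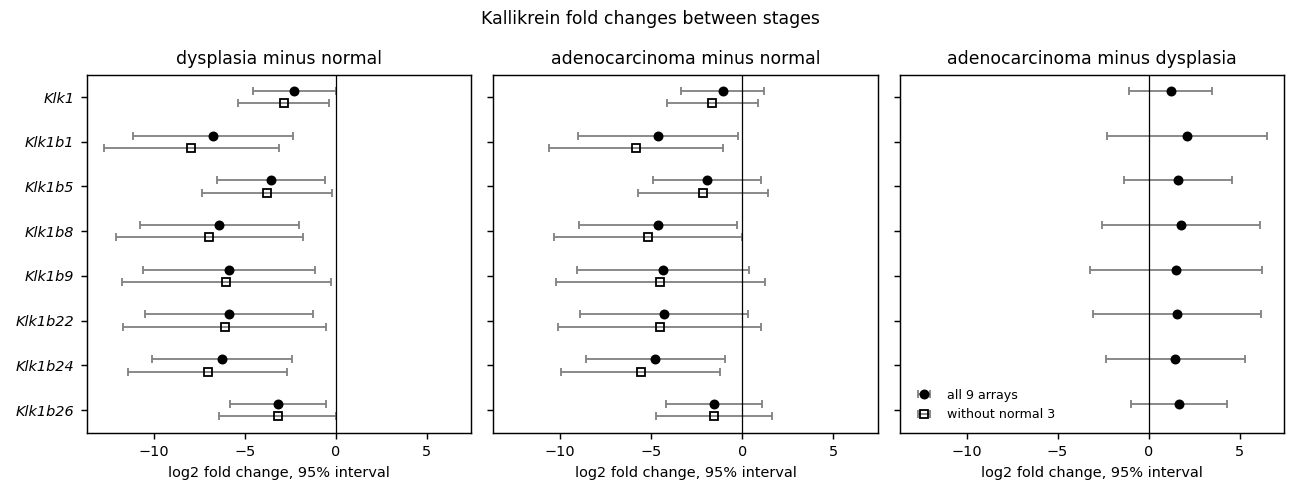
Log2 fold change (x axis, first-named minus second-named stage) with its 95% interval from limma for the 8 kallikreins (rows) in the 3 comparisons. Filled circles use all 9 arrays and open squares leave out normal 3. All intervals of adenocarcinoma minus dysplasia cross 0, and in dysplasia minus normal that of Klk1 on all 9 arrays reaches 0.01.

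Adenocarcinoma 3 separated Klk1 from the other members. There Klk1 read 14.09, a log2 change of -0.82 from its normal mean. Klk1b1, Klk1b8, Klk1b9, Klk1b22 and Klk1b24 read 6.62 to 7.24 on this array, with changes of -7.94 to -7.31 from their normal means. Klk1b5 and Klk1b26 had changes of -2.13 and -2.26 by their brightest probes. Klk1 also had the smallest change on dysplasia 3, at -2.75, where that of Klk1b9 was -8.46. This grouping of genes was noticed in these values and was not tested.

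The probes of Klk1b26 and of Klk1b5 disagreed on these arrays. The second Klk1b26 probe read 7.80 on adenocarcinoma 3, against 13.05 for the first, a gap of 5.25. On the normal arrays the gap between the 2 probes was -0.34, -0.20 and 0.24, in dysplasia it was 1.69, 1.20 and 3.46, and on adenocarcinoma 1 and 2 it was -0.01 and 1.41. The first Klk1b26 probe thus parted from the second where the other Klk1b genes were lowest. A probe of Egfbp2, which RefSeq lists as a synonym of Klk1b26, read 7.51 on adenocarcinoma 3 and 6.62 on dysplasia 3. It was closer to the second Klk1b26 probe than to the first on both. The other Klk1b5 probes read 6.73 and 7.01 on adenocarcinoma 3, against 12.86 for the brightest, gaps of 6.13 and 5.85. On dysplasia 3 they read 6.48 and 6.39, against 10.30. By their other probes Klk1b26 and Klk1b5 had log2 fold changes of -5.41, and of -5.32 and -5.87, in dysplasia against normal on all 9 arrays (0 of 3 past the threshold), where the brightest probes gave -3.19 and -3.55. Over the 9 arrays the brightest Klk1b5 probe correlated with Klk1 at r = 0.956 and the brightest Klk1b26 probe at 0.8995, the highest values among the 14 Klk1b probes, the lowest being 0.746 for the second Klk1b26 probe. These correlations describe 9 arrays that share stages and carry no p. As copies of the family are near-identical, a probe may read several of them, and probe sequences were not used here to test this.

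Probes of the other members agreed more closely. The 2 Klk1b1 probes differed by -0.05 to 0.13 on the 9 arrays, and the 2 Klk1b24 probes by -0.38 to 0.34. The 3 Klk1b9 probes read 7.24, 6.45 and 7.53 on adenocarcinoma 3 and 12.76, 11.67 and 12.56 on dysplasia 2. When each of the 15 probes was tested on its own without normal 3, 4 passed as lower in dysplasia, both of Klk1b1 and both of Klk1b24, where 10.1% of all probes tested passed as lower.

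The 4 further Klk1b genes with a probe are no members but lie in the same cluster. Klk1b11, Klk1b16, Klk1b21 and Klk1b27 all were lower on each dysplasia array than on any normal array, with log2 fold changes of -5.32, -5.76, -5.60 and -4.07 and 0 of 4 past the threshold on all 9 arrays or without normal 3 (limma adjusted p = 0.161 to 0.177 and 0.0556 to 0.115). For comparison, 10.4% of all genes tested were lower in dysplasia without overlap. Probes of these 4 genes may also read transcripts of the members, which was not tested, so they are not independent evidence. Klk1b27 resembled Klk1b26 in having a bright probe at 12.62 on adenocarcinoma 3 beside a second one at 7.53. The 4 probes with the smallest changes on adenocarcinoma 3 belong to Klk1b26 and Klk1b27, neighbours inside the cluster, and to Klk1b5 and Klk1, neighbours at its end. Other probes of Klk1b26, Klk1b27 and Klk1b5 changed by -7.61, by -7.56, and by -6.81 and -7.63 on that array. A relation of the changes to gene position was not tested.

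**Figure D3:**
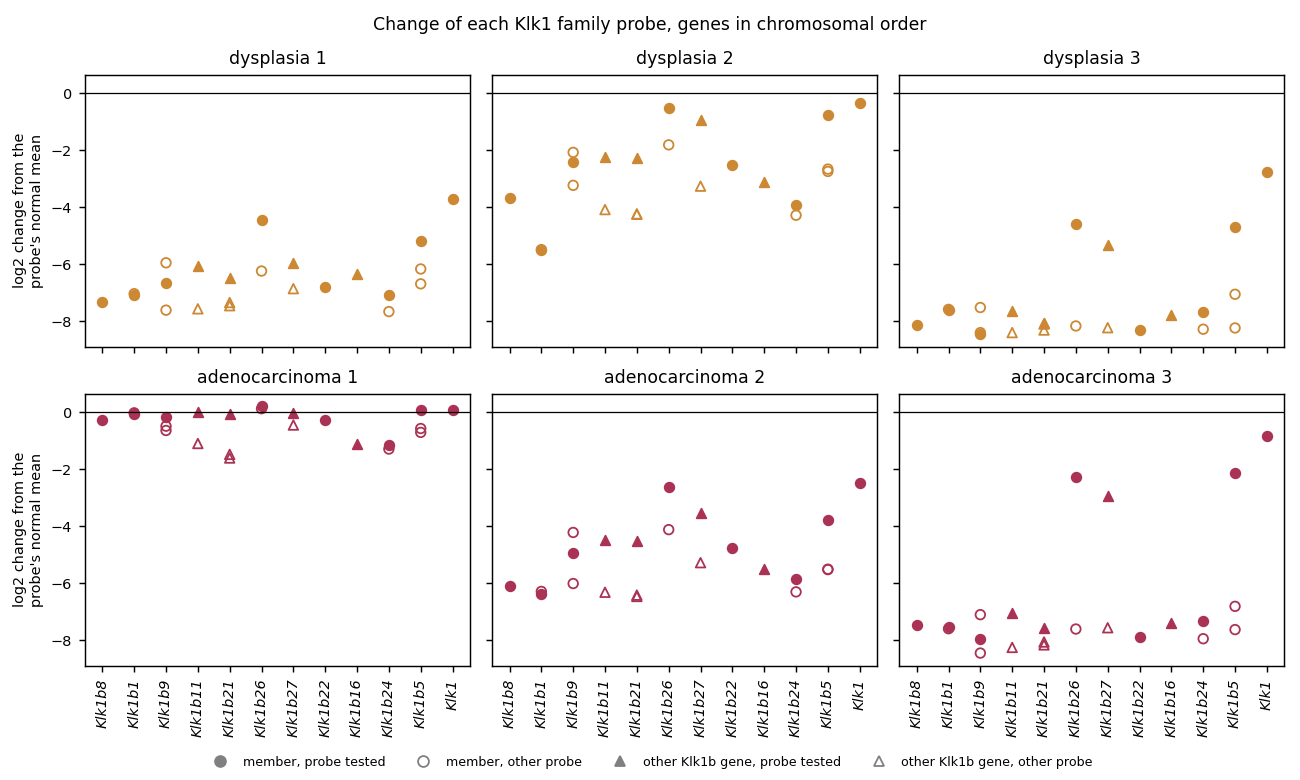
Log2 change of each Klk1 family probe from its own mean over the 3 normal arrays (y axis), with genes in chromosomal order (x axis), on each dysplasia and adenocarcinoma array. Circles are members, triangles other Klk1b genes, filled symbols the probe tested and open symbols other probes. On adenocarcinoma 3, Klk1 lies at -0.82 and the brightest probes of Klk1b26, Klk1b27 and Klk1b5 at -2.26, -2.93 and -2.13, while all remaining probes lie lower.

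The kallikrein-related peptidases outside the Klk1 family were dim, so a fall as large as that of the Klk1b genes could not be seen in them. Of 12 listed genes, Klk4 to Klk15, 4 were above background often enough to be tested. Already on the normal arrays, Klk7 read 6.18 to 6.37, Klk10 6.09 to 6.42 and Klk15 6.46 to 6.60, near the background level of 6.31. Klk8, a peptidase also known as neuropsin, read 8.50, 8.34 and 8.20 on the normal arrays, 7.02, 7.41 and 7.95 in dysplasia and 8.02, 7.64 and 7.79 in adenocarcinoma. Without normal 3 it fell by 0.96 on the log2 scale in dysplasia (limma adjusted p = 0.0455, and 0.16 on all 9 arrays). That is 1 of 4 genes tested, where 11.1% of all genes passed as lower. Klk7, Klk10 and Klk15 did not pass in any comparison, and Klk7 stood out on dysplasia 3 at 8.27, with 6.10 to 6.61 elsewhere.

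Among the cargoes stored with the kallikreins, Egf, the precursor of epidermal growth factor, was tested, and Ren1 and Ren2 were not analysed here. Egf read 15.22, 15.31 and 13.94 on the normal arrays, 8.73, 12.10 and 8.12 in dysplasia and 14.34, 10.54 and 8.29 in adenocarcinoma. Dysplasia 2 and adenocarcinoma 1 were its high arrays, as for the kallikreins. Its log2 fold change was -5.17 ± 1.56 (SE) in dysplasia against normal and -3.77 in adenocarcinoma against normal (limma adjusted p = 0.165 and 0.307).

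Of 17 listed genes of the kinin system and of protease inhibitors, 6 were tested. Kng1, which encodes kininogen, the substrate from which kallikrein releases kinins, read 10.19, 8.51 and 6.25 on the normal arrays, 6.02, 6.41 and 7.18 in dysplasia and 8.35, 6.72 and 13.14 in adenocarcinoma. Kng2, a second kininogen gene with a closely related sequence, read 11.12 on adenocarcinoma 3 and 6.32 to 8.36 elsewhere. Both were highest on adenocarcinoma 3, the array on which Klk1 parted from the other kallikreins. All 6 skeletal muscle genes tested were also highest there, with a median of 10.28 on that array and 6.50 to 8.21 on the others, and their part in these values was not tested. Cpm, carboxypeptidase M, which trims kinins, fell without normal 3 in dysplasia (log2 fold change -1.83, limma adjusted p = 0.0195, and 0.178 on all 9 arrays), the 1 call of this list in the comparisons with normal glands. That is 1 of 6 genes, where 11.1% of all genes passed as lower. Ace and Mme, peptidases that degrade kinins, and Cpn1 did not pass in any comparison.

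Other proteases moved differently. Of 9 tested, Tmprss4, a membrane serine protease, passed as lower in dysplasia and in adenocarcinoma without normal 3 (log2 fold changes -0.61 and -0.74, limma adjusted p = 0.0404 and 0.0299), and Tmprss2 in adenocarcinoma (-2.65, limma adjusted p = 0.044). Of all genes, 11.1% passed as lower in dysplasia and 7.77% in adenocarcinoma. On all 9 arrays neither passed (adjusted p = 0.249 to 0.343). Ctsc, the cysteine protease cathepsin C, which activates granule serine proteases of blood cells, read 7.64, 7.67 and 7.36 on the normal arrays, 10.12, 9.74 and 11.10 in dysplasia and 11.50, 10.56 and 8.14 in adenocarcinoma, with no overlap with normal in either stage (limma adjusted p = 0.16 and 0.25). Across all genes, 12.2% in dysplasia and 10.2% in adenocarcinoma were higher than normal without overlap. Of 8 listed receptors and enzymes of the hormones that act on tubule cells, 3 were tested. The glucocorticoid receptor Nr3c1 read 7.10, 7.13 and 7.41 in dysplasia, against 6.66, 6.71 and 6.46 on the normal arrays, without overlap (log2 fold change 0.61, limma adjusted p = 0.16). The thyroid hormone receptor Thra and the oestrogen receptor Esr1 did not pass, and the androgen receptor was not analysed here.

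The genes most like the kallikreins over the 9 arrays were ranked by Pearson's r with the median of the 8 members. Egfbp2, a symbol that RefSeq lists as a synonym of Klk1b26, was first at 0.995 and Egf was second at 0.993. Arhgap32, a GTPase-activating protein, followed at 0.963, then Qars, a glutaminyl-tRNA synthetase, at 0.953, and Mucl2, a mucin-like gene, and Prol1, a salivary mucin gene, at 0.95 and 0.949. The remaining 9 of the 15 highest were Dmac2, Aox4, Nipal2, Timm29, Pafah2, Slc46a3, Cd226, Muc13 and Tppp, at 0.933 to 0.896. Of 12577 genes compared, 12 exceeded 0.9. Levels of Qars ranged from 11.47 to 12.30, so a high r here goes with a small change, whereas Prol1 ranged from 9.95 to 15.58. Aox4 and Cd226 read only 6.05 to 6.72 and 6.18 to 6.56, near the background level of 6.31. Without normal 1 and 2, over 7 arrays, r was 0.994 for Egfbp2 and Egf and 0.927 for Prol1.

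The median of the acinar genes followed another order of arrays than the kallikreins, although single acinar genes differed. The median of 16 acinar genes was 15.36, 15.30 and 14.03 on the normal arrays, 9.83, 8.93 and 9.73 in dysplasia and 14.88, 11.76 and 14.10 in adenocarcinoma. Of the 16 acinar genes, 10 were higher on adenocarcinoma 3 than on dysplasia 2, as were 0 of the 8 kallikreins. Smr3a and Amy1 read 15.46 and 14.54 on adenocarcinoma 3 and 7.28 and 7.26 on dysplasia 2. Prol1, Aqp5 and Slc12a2 were among the 6 acinar genes that went the other way, at 9.95, 11.09 and 13.30 on adenocarcinoma 3 and 14.29, 14.02 and 15.47 on dysplasia 2. Pip was high on both, at 15.50 and 14.65. These genes were picked after their values were seen. The median of 18 duct genes was 10.43, 10.88 and 8.18 on the normal arrays, 6.81, 7.46 and 7.24 in dysplasia and 8.73, 7.44 and 8.58 in adenocarcinoma. Of these duct genes 0 passed in dysplasia against normal on all 9 arrays, and without normal 3, 8 passed as lower and 1 as higher, where 11.1% and 12.2% of all genes passed. Adipocyte, B cell and T cell medians were also highest on normal 1 and 2, at 11.54 to 12.79, 10.06 to 10.56 and 9.07 to 9.10, and were 7.03, 6.998 and 7.15 on normal 3. Adenocarcinoma 1 came next after normal 1 and 2 for each of them, at 9.98, 8.64 and 8.36. The part of these cell types in the kallikrein differences was not tested.

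**Figure D4:**
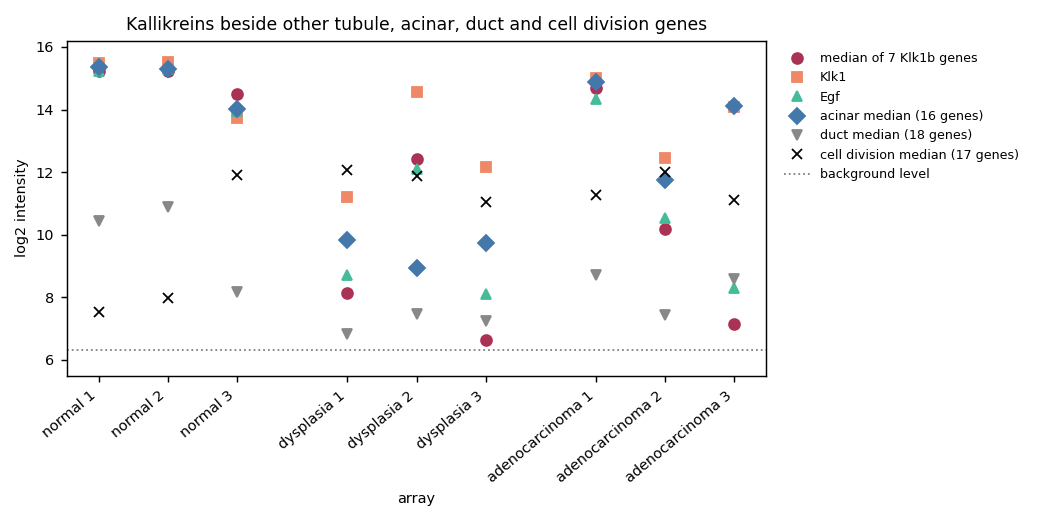
Log2 intensity (y axis) on the 9 arrays (x axis) of the median of 7 Klk1b genes, of Klk1, of Egf and of the medians of 16 acinar, 18 duct and 17 cell division genes; each symbol is to be read across arrays, since levels of different probes are not comparable. The acinar median is high on adenocarcinoma 3 at 14.10 and low on dysplasia 2 at 8.93, whereas Egf reads 8.29 and 12.10 on these arrays.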

How the data were processed

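Total RNA labelled with biotin was hybridised to 9 Illumina BeadChip arrays, with stage and number of each array as its title gives them. The values used are intensities that the authors deposited in a quantile-normalized form (the sorted values of any 2 arrays lay within 0.0992%, and the lowest was 42.45). Per the submitters' processing notes limma was used, with no version stated, and how background was corrected is not given in the sources used here. Another table, with 18 columns whose names match no sample label, was left aside. Of 45281 probes, 34885 had 1 gene symbol, 18 had several and 10378 were unnamed here. Background was set at the mode of all values (65.8) plus 1.645 times the spread below it, an intensity of 79.3. Probes above it on at least 3 arrays were kept, and the brightest probe stood for a gene, which left 13015 genes. Stages were set against each other on log2 intensities over all 9 arrays with limma 3.58.1 (R 4.3.3), with 6 residual degrees of freedom and Benjamini-Hochberg adjustment over all genes tested at 0.05. SE is the moderated standard error. With 3 arrays a group, an exact permutation test reaches p = 0.1 at best, so none is given. The number of arrays limits the precision. The fit was tested on simulated data in which the spread of each gene was capped and no array was unlike its group. That test therefore does not cover very variable genes or an array such as normal 3. Alternatives were the filter, the probe rule, normexp, a pseudocount, cyclic loess, array weights, the arrays of 2 stages alone, the replicate block and each array left out. Named genes were all members, the listed genes of related groups, and the 15 genes most correlated with the median of the members, without clone names. The members, gene lists and the array left out were chosen with earlier results of these data known. Promoter windows from RefSeq GRCm38.p6 were aligned with Biopython 1.88, and all 10 member symbols matched. Figures were drawn with matplotlib 3.10.9.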

Additional observations from a re-analysis of the deposited data

How the results depend on the processing

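Counts of genes past the threshold depended on array weights and on normal 3. With array weights in limma, 7799 of the 13015 genes tested passed in dysplasia against normal. Among them were 4 of the 8 members (Klk1b1, Klk1b8, Klk1b22 and Klk1b24). In adenocarcinoma against normal, 4457 of 13015 genes passed, and 1 of the 8 members (Klk1b24, limma adjusted p = 0.0498). Of all genes, 3638 passed as lower in dysplasia and 2169 in adenocarcinoma with array weights, and every member called was lower. Whether the members differ from all genes in this was not tested. Leaving out each array in turn, dysplasia against normal gave 0 to 3029 genes and 0 to 2 members, adenocarcinoma against normal 0 to 1986 genes and 0 members, and adenocarcinoma against dysplasia 0 to 1 gene and 0 members, the highest counts with normal glands being those without normal 3. Without a filter on dim probes 1 gene passed in dysplasia and 6 in adenocarcinoma against normal, with every probe on its own 2 and 1 passed, and with cyclic loess 1 passed in adenocarcinoma against normal. With the replicate block 0 genes passed in each comparison, and same-numbered arrays shared only a number (correlations of their deviations from -0.46 to 0.24). Leaving out each array, the log2 difference of adenocarcinoma and dysplasia ranged from -0.21 to 3.53 for Klk1b1, -0.41 to 3.19 for Klk1b8, -0.59 to 3.30 for Klk1b9, -0.46 to 3.36 for Klk1b22 and -0.35 to 2.74 for Klk1b24, the lowest in each case without adenocarcinoma 1. In both comparisons with normal glands every member had a negative log2 fold change under all 19 alternatives. With array weights the log2 fold changes in dysplasia were -3.37 for Klk1b22, -3.18 for Klk1b9, -1.52 for Klk1b5, -1.28 for Klk1 and -1.07 for Klk1b26, against -5.87, -5.85, -3.55, -2.27 and -3.19 with equal weights. The cause of these shifts was not tested.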
